A study of Saccharomyces cerevisiae with 8 samples.

Results

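The effect of losing HTZ1, the gene for a histone variant, was examined in budding yeast (Saccharomyces cerevisiae) growing without salt, by comparing transcript levels in an htz1 deletion strain with those in wild type. The comparison uses 4 of the 8 arrays of the series, picked by sample title: 2 from unstressed wild-type cultures and 2 from unstressed cultures of the deletion strain. All non-control probes were read, 6256 on each array, and 5394 genes were bright enough to be tested. Both groups carry the strain name BY4147 in the labels, where HTZ1 is the only genotype difference given. Cells from an overnight culture in YPD, a rich glucose medium, were diluted to an optical density (OD) of 0.1, grown in YPD to an OD of 1 and harvested with no NaCl added. The other 4 arrays, 2 of each strain, come from cultures kept in 0.4 M NaCl for 20 minutes before harvest. They entered the estimate of the spread between replicates and serve as a comparison at the end. Per the series design, each group stands for 2 biological replicates. The labels do not say how the deletion was made or whether 1 clone was used, so the deletion and any other difference of that clone cannot be told apart.

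Htz1 is the yeast form of H2A.Z, a variant of histone H2A. The SWR1 complex exchanges it into the nucleosomes that flank promoters, and it is also found next to silent chromatin near chromosome ends, where it is known to limit the spread of silencing. The INO80 complex, a related remodeller, acts on nucleosomes around promoters as well. In cells growing on glucose, genes for stress defence and for storage carbohydrates are held at low levels. Many of them are driven by the transcription factors Msn2 and Msn4, which protein kinase A keeps out of the nucleus while glucose is plentiful.

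Levels are given as log2 of the background-subtracted signal relative to the 75th percentile of the array, and a difference is deletion minus wild type on the same log2 scale, with its standard error (SE). The 75th percentile of the signal itself was 3914 and 3999 on the wild-type arrays and 2740 and 3108 on the deletion arrays, and 82.2 to 84.3% of spots on these 4 arrays were well above background. Across genes the wild-type replicates correlated at r = 0.993 with a median absolute difference of 0.123, and the deletion replicates at r = 0.987 with 0.227. Across the 8 arrays, deletion replicate 2 without salt held 44 of the 86 spots with an outlier flag. All arrays lay on 1 slide, wild type in row 1 and deletion in row 2, so slide row and strain cannot be told apart. All 7 a-specific mating genes were well above background on all 4 arrays. Of 7 alpha-specific genes, STE3, MF(ALPHA)1 and MF(ALPHA)2 were above background on none of the 4, as were 25 of 34 meiosis and sporulation genes. HMLALPHA2 and AFB1 of the alpha-specific genes were above background on all 4. Of the tested markers of the alpha type, AFB1 passed, at −1.19 (SE 0.18). It did not pass under normexp (−0.25) or in the authors' value table (−0.26).

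In total 738 of 5394 genes (13.7%) passed the test (limma with Benjamini-Hochberg adjustment over all genes, adjusted p under 0.05). Of these, 397 were higher in the deletion strain (7.36% of all tested) and 341 were lower (6.32%), and 1683 genes had an unadjusted p under 0.05. Higher genes moved farther. Their median difference was 0.87 (1.83-fold) against −0.66 (1.58-fold) among lower genes, and 146 were at least 2-fold higher while 60 were at least 2-fold lower. At 4-fold or more there were 34 higher and 10 lower genes. Over all tested genes the median was −0.04, with the middle of the distribution between −0.26 and 0.21. The 2 groups did not overlap for 57.9% of all genes, so lack of overlap by itself distinguishes little here. Of the passing genes, 37 higher and 29 lower ones were above background in 1 strain only and have a bound on their fold, and 22 higher and 4 lower ones were dim in both strains and have no fold.

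The higher calls held better than the lower ones under other ways of processing. With normexp background correction 167 genes were higher and 23 lower, the share of higher genes among the calls went from 53.8% to 87.9%, and 62 of the 341 lower genes changed sign. That correction moved the median of all genes to 0.108, and that of the dimmest 1079 genes, the lowest of 5 equal bins of mean level, from −0.08 to 0.485. Lower calls were also unevenly spread over levels, with 10.75% of genes in the dimmest bin and 1.95% in the brightest, against 8.62% and 8.34% for higher calls. Leaving out wild-type replicate 1 left 271 calls and leaving out wild-type replicate 2 left 286, against 663 and 571 without deletion replicate 1 or 2. A fit on the 4 unstressed arrays alone gave 348. Across 12 alternatives, 103 higher and 9 lower genes passed in the same direction in each one that gave them a value, and in what follows only these are said to have held. The lower ones include HTZ1, CYC1, FCY21, XPT1, AIM2, CUP1-1, RSC30 and YHR054C.

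**Figure D1:**
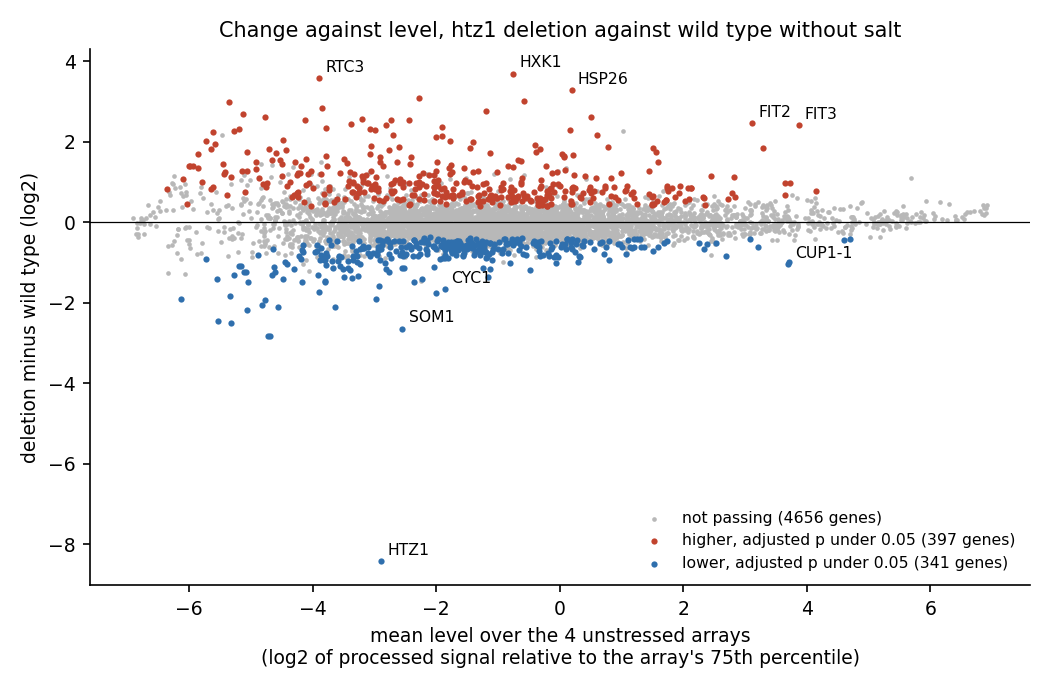
Difference between the strains without salt (vertical axis, log2) against mean level over the 4 unstressed arrays (horizontal axis, log2 relative to the 75th percentile of each array), 1 point per tested gene. The 397 higher genes (red) lie at all levels, the 341 lower ones (blue) are more frequent at low levels, and HTZ1 stands alone at −8.41.

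HTZ1 (YOL012C, chromosome XV) separated the strains and checks the labels. Its level was 1.35 and 1.29 in wild type and −7.26 and −6.92 in the deletion strain, where neither array was well above background. It was at least 65.7-fold lower there (limma adjusted p = 3.91e-07). Of the 6 genes beside it by gene order, 3 on each side, 5 were tested and 0 passed, with 2 under an unadjusted p of 0.05. MDM12, which tethers mitochondria to the endoplasmic reticulum, was at 0.45 (SE 0.13) and HRD1, a ubiquitin ligase of the endoplasmic reticulum, at 0.29 (SE 0.11), while RCL1, PLB3 and YOL014W lay between −0.25 and 0.21.

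Of 16 tested genes for Htz1, the SWR1 complex and Htz1 carriers, 1 was higher and 2 were lower, HTZ1 among them, against 13.7% of all genes called. SWR1, the ATPase of the complex, was at −0.11 and −0.06 in wild type and 0.41 and 0.47 in the deletion strain, a difference of 0.53 (SE 0.12, limma adjusted p = 0.0251). SWC3, another subunit, was lower by −0.59 (SE 0.13, limma adjusted p = 0.0254). Neither passed without wild-type replicate 1 (0.51 and −0.54), wild-type replicate 2 (0.56 and −0.63) or deletion replicate 2 (0.50 and −0.56). SWC3 also did not pass without deletion replicate 1 (−0.62), and its value under normexp was 0.07. The histone chaperone NAP1 (−0.39) and the importin KAP114 (−0.30), which carry Htz1 into the nucleus, and CHZ1 (0.34), its own chaperone, did not pass. NAP1 lay close to the threshold (limma adjusted p = 0.051) and passed under quantile scaling (−0.42) and in the authors' value table (−0.35). Of 14 INO80 subunits 1 passed, IES6, at 0.70 (SE 0.13, limma adjusted p = 0.0154). IES6 did not pass without wild-type replicate 1 (0.75) or replicate 2 (0.65).

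No canonical histone gene passed. Of 9 tested, 0 had an unadjusted p under 0.05, with a median of 0.11, or −0.04 in the authors' value table. Against the wild-type mean their median was 0.32 on deletion replicate 1 and −0.10 on deletion replicate 2. Of 46 genes for other remodellers, acetylases and deacetylases, 12 were lower at an unadjusted p under 0.05. After adjustment 0 were higher and 7 were lower (median −0.15). The lower share was 15.22%, against 6.32% of all genes, a difference that was not tested. Of these 7, 2 remained without wild-type replicate 1, 3 without wild-type replicate 2 and 1 under normexp, and 1 gene of the 46 was higher at an unadjusted p under 0.05. RSC30, for a DNA-binding subunit of the RSC remodeller, passed throughout (−0.87, SE 0.13, limma adjusted p = 0.00665), and it lies beside the CUP1 locus. YNG2, a subunit of the NuA4 acetylase that acts on Htz1, was lower by −0.89 (SE 0.15, limma adjusted p = 0.01). It did not pass without wild-type replicate 2 (−0.82) or under normexp (−0.60).

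General stress genes made the main group of higher genes. Of 74 tested, 56 were higher and 0 were lower, with a median difference of 0.92 against −0.04 over all genes, and 0 were lower at an unadjusted p under 0.05 as well. The count was 37 under normexp, 51 in the authors' value table, and 40 without either wild-type replicate. HXK1, a hexokinase made when glucose runs low, had the largest increase among genes measured in both strains. Its level was −2.57 and −2.61 in wild type and 0.99 and 1.21 in the deletion strain. The groups lay far apart, with a 12.9-fold increase of HXK1 (difference 3.69 with SE 0.13, limma adjusted p = 2.55e-05). HSP26, a small heat shock protein that binds unfolding proteins, was at −1.59 and −1.31 in wild type and 1.64 and 2.04 in the deletion strain, 9.76-fold higher (SE of the log2 difference 0.16, limma adjusted p = 0.000111). The gene lists overlap. HSP26, HSP12, TMA10, DDR2, RTC3 and STF2 also belong to the hydrophilins and other small stress proteins. Among the hydrophilins and other small stress proteins, 11 of 16 were higher and 0 lower, with a median of 1.18, and 7 of the 11 remained without either wild-type replicate.

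The stress genes that led were of several kinds. TMA10, a stress-induced protein found with ribosomes, was 8.05-fold higher, at −1.99 and −2.19 against 0.98 and 0.86 (limma adjusted p = 0.000111). DDR2, a small DNA damage and stress response gene, was 8.45-fold higher, with wild-type levels of −3.41 and −4.21 and deletion levels of −0.92 and −0.55. HSP12, which stabilises membranes, was 4.37-fold higher (2.13, SE 0.18). RTC3, a little-known stress protein, was below background on both wild-type arrays and above it on both deletion arrays, and was at least 5.57-fold higher (limma adjusted p = 0.000104). The polyubiquitin gene UBI4 was at −0.20 and −0.08 in wild type and 1.73 and 1.71 in the deletion strain, 3.63-fold higher. The cell wall stress genes YGP1 (2.77, SE 0.30) and SPI1 (2.03, SE 0.18) and the lipid droplet gene PLN1 (2.16, SE 0.19) were higher too. All of these genes held. Lack of overlap between the strains adds nothing here, since all 397 higher genes had it.

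**Figure D2:**
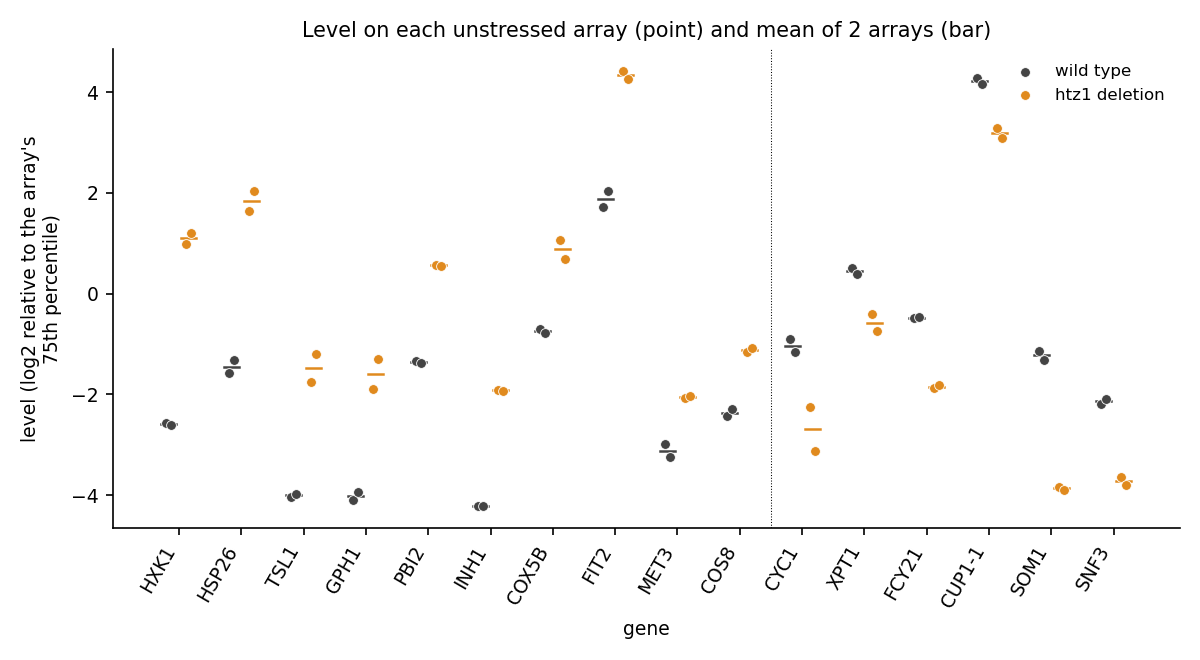
Level on each of the 4 unstressed arrays (points, log2 relative to the 75th percentile of the array) for 16 genes, with the mean of 2 arrays as a bar; 10 higher genes stand left of the dotted line and 6 lower ones right of it. In each of the 16 genes both deletion arrays (orange) lie on the same side of both wild-type arrays (dark), as in all 397 higher and 341 lower genes.

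Most chaperone and proteasome genes did not pass. Of 29 genes for Hsp70, Hsp90 and related chaperones 1 was higher, the mitochondrial disaggregase HSP78 (0.75, SE 0.13), which did not pass without wild-type replicate 1 (0.63), and the median was 0.15. Of 38 proteasome genes 0 passed, 3 had an unadjusted p under 0.05, and the median was 0.09. The genes for the stress factors themselves gave MSN2 at 0.03 (SE 0.15) and MSN4 at −0.53 (SE 0.23), neither of which passed.

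Some storage carbohydrate genes were higher in both branches. Of 10 trehalose genes 5 were higher (median 0.53), and of 12 glycogen genes 5 were higher (median 0.48), with none lower in either group even at an unadjusted p under 0.05. All 5 higher trehalose genes are also among the general stress genes, as are the higher glycogen genes GLC3, GSY1, GSY2 and GPH1, but not GLG2. These groups are thus not separate from that one. For trehalose, the synthase TPS1 (1.11, SE 0.12), the phosphatase TPS2 (1.10, SE 0.12) and the regulatory subunit TSL1 passed and held. TSL1 was at −4.03 and −3.98 in wild type and −1.75 and −1.19 in the deletion strain, 5.78-fold higher (limma adjusted p = 0.000536). PGM2, the phosphoglucomutase that feeds both branches, was 3.45-fold higher. For glycogen, the synthase GSY2 (1.36, SE 0.14), the branching enzyme GLC3 (1.64, SE 0.14) and the phosphorylase GPH1 held. GPH1 was at −4.09 and −3.94 against −1.90 and −1.31, 5.32-fold higher (limma adjusted p = 0.00284). The size of these differences depended on the processing. In the authors' value table TSL1 was at 1.54 instead of 2.53, GPH1 at 1.41 instead of 2.41 and GLC3 at 0.65 instead of 1.64. TPS1 was farther from 0 there, at 1.25. GLC3 was above background on 1 of the 2 wild-type arrays. Enzymes of synthesis and of breakdown were thus higher together, while the glycogen debranching enzyme GDB1 (−0.48, SE 0.38) and the trehalases NTH2 (0.09, SE 0.12) and ATH1 (0.28, SE 0.14) did not pass. The neutral trehalase NTH1 was higher by 0.73 (SE 0.16, limma adjusted p = 0.0288), but not past the threshold without wild-type replicate 1 (0.69), wild-type replicate 2 (0.77) or deletion replicate 2 (0.56).

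Related genes of a pair could differ. In 27 pairs, which were chosen after their values were seen so that the tally describes the choice and supports no general pattern, the first gene alone was higher in 19, both were higher in 4, the second alone was higher in 1 and neither was higher in 3. In sugar metabolism HXK2, the main hexokinase of growth on glucose, stood at 0.05 (SE 0.10) beside HXK1 at 3.69. Likewise TDH3 was at 0.26 beside TDH1 at 1.50, GPM1 at 0.34 beside GPM2 at 1.03, and CDC19, the main pyruvate kinase, at 0.29 beside PYK2 at 1.24. TDH1 is a glyceraldehyde-3-phosphate dehydrogenase, and its levels were 0.71 and 0.97 in wild type and 2.44 and 2.22 in the deletion strain. The second glucokinase-like gene EMI2 (1.06, SE 0.11) and GLK1 (2.17, SE 0.13) were both higher.

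In further pairs, GPP2, a glycerol-3-phosphatase of the osmotic response, was higher by 1.39 (SE 0.14) and GPP1 was at 0.04 (SE 0.20). SOL4 of the pentose phosphate pathway was at least 3.32-fold higher and SOL3 was at 0.23. The glutamate dehydrogenase GDH3, used on poor carbon sources, was higher by 1.23 (SE 0.13) and GDH1 was at 0.38 (SE 0.11). OYE3, an NADPH oxidoreductase, was higher by 1.62 (SE 0.24) and OYE2 was at −0.07. The pairs SSE2 and SSE1 and SSA3 and SSA1, all Hsp70-type chaperones, had no member that passed. Neither the difference between the members of a pair nor signal shared by probes of similar sequence was tested.

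**Figure D3:**
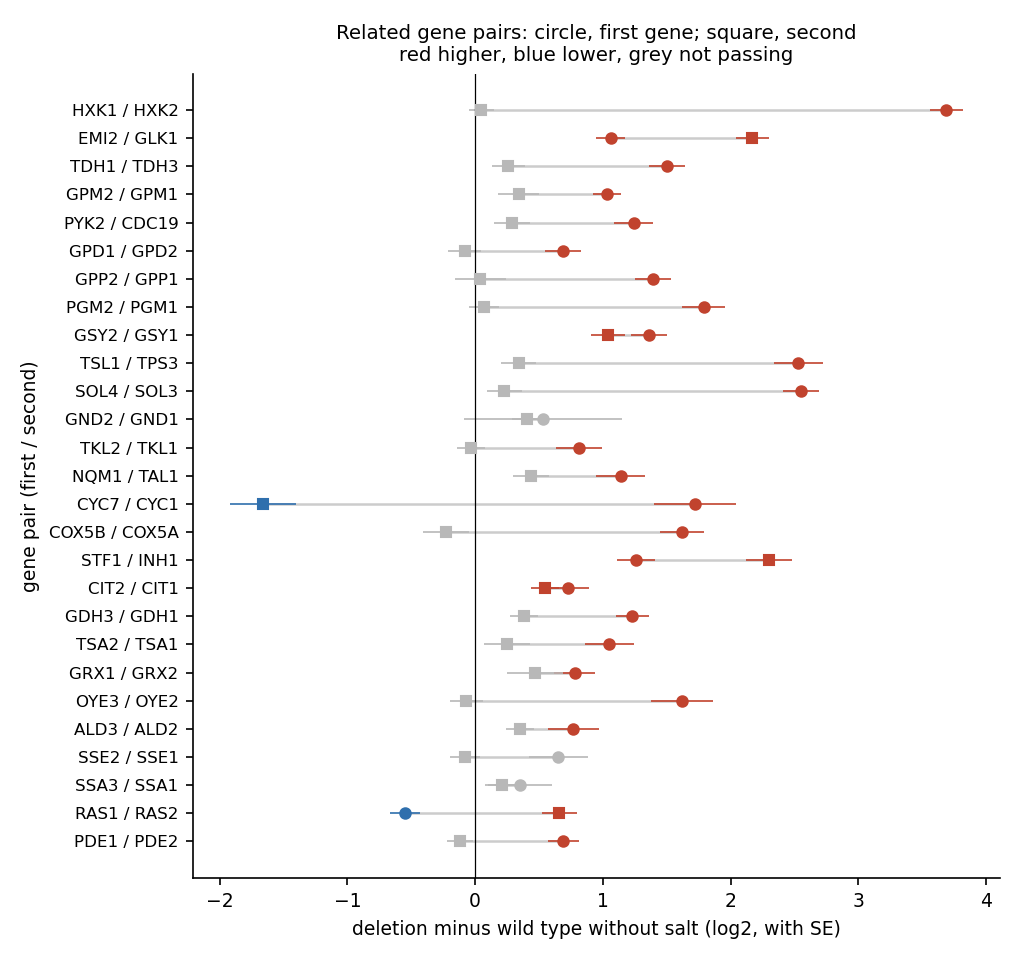
Difference between the strains without salt (horizontal axis, log2, bars give the SE) for 27 pairs of related genes; circles are the first and squares the second gene of a pair, red is higher, blue lower and grey not passing. In 19 pairs only the first gene is higher, with HXK1 at 3.69 and HXK2 at 0.05 farthest apart among these.

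Of the Ras and protein kinase A pathway, which signals glucose and opposes Msn2 and Msn4, 3 of 15 genes were higher and 1 lower. The phosphodiesterase PDE1 was higher by 0.69 (SE 0.12), RAS2 was higher by 0.66 (SE 0.14) and RAS1 was lower by −0.55 (SE 0.12). These did not pass without wild-type replicate 1 (0.74, 0.77 and −0.54) or wild-type replicate 2 (0.64, 0.54 and −0.56). RAS2 also did not pass without deletion replicate 1 (0.56), nor RAS1 without deletion replicate 2 (−0.52). TFS1, an inhibitor of carboxypeptidase Y and of Ras regulation, was 2.69-fold higher and held, and is also among the general stress genes.

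Vacuolar and autophagy genes were higher in part. Of 24 tested, 10 were higher, with a median of 0.44, and 6 of the 10 remained without wild-type replicate 1 or deletion replicate 2. None was lower, with 1 under an unadjusted p of 0.05. The higher share was 41.67%, against 7.36% of all genes. PEP4, the vacuolar protease that activates others, was at 1.86 and 1.88 in wild type and 2.92 and 3.13 in the deletion strain, 2.22-fold higher (limma adjusted p = 0.0018). PBI2, an inhibitor of vacuolar protease B, was at −1.35 and −1.38 against 0.57 and 0.55, 3.80-fold higher (limma adjusted p = 0.000239). AMS1, the vacuolar mannosidase, was 5.77-fold higher, its carrier ATG19 1.74-fold and ATG17, a scaffold of autophagosome formation, 2.42-fold. These 5 held. Among other genes that held, chosen after their values were seen, were CAR2 of arginine breakdown (1.69, SE 0.14) and the arginine permease CAN1 (1.14, SE 0.17). GAD1 (1.51, SE 0.15) and UGA2 (0.84, SE 0.13) of the glutamate and GABA route, chosen in the same way, held too. Both are also among the general stress genes, as are AMS1, ATG8, PRB1 and APE1 of the higher vacuolar and autophagy genes.

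In respiration the changes were uneven between genes. Of 45 genes for the respiratory chain, ATP synthase and its regulators 9 were higher (20.0%) and 1 was lower (median 0.34). Of 26 genes of the tricarboxylic acid cycle 6 were higher (23.08%) and 1 lower (median 0.35), against 7.36% higher over all genes. The 9 became 5 without wild-type replicate 1 and 4 without replicate 2, and the 6 became 2 without wild-type replicate 2. CYC1, the main cytochrome c, was the lower one of the chain. It was at −0.90 and −1.16 in wild type and −2.26 and −3.13 in the deletion strain, 3.16-fold lower (−1.66, SE 0.26, limma adjusted p = 0.00787), and held. CYC7, the second cytochrome c, was below background in wild type and at least 1.81-fold higher (limma adjusted p = 0.0156). CYC7 did not pass without wild-type replicate 2 (1.35), without deletion replicate 2 (1.43), under normexp (1.47) or in the authors' value table (0.53). COX5B, the form of cytochrome oxidase subunit 5 used at low oxygen, was at −0.70 and −0.78 against 1.07 and 0.69, 3.06-fold higher, while COX5A was at −0.23 (SE 0.18).

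The regulators of ATP synthase stood out within this group. INH1 and STF1, which inhibit its ATP hydrolysis, were 4.94-fold and 2.39-fold higher, and STF2, a hydrophilin first described as a stabiliser of the inhibited form, was 4.86-fold higher. Both INH1 and STF2 are also among the general stress genes. INH1 was at −4.22 on both wild-type arrays and at −1.91 and −1.92 in the deletion strain (limma adjusted p = 0.000697), and 1 of the 2 wild-type arrays was above background. In the tricarboxylic acid cycle LSC2, a subunit of succinyl-CoA ligase, was higher by 0.98 (SE 0.12) and held.

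**Figure D4:**
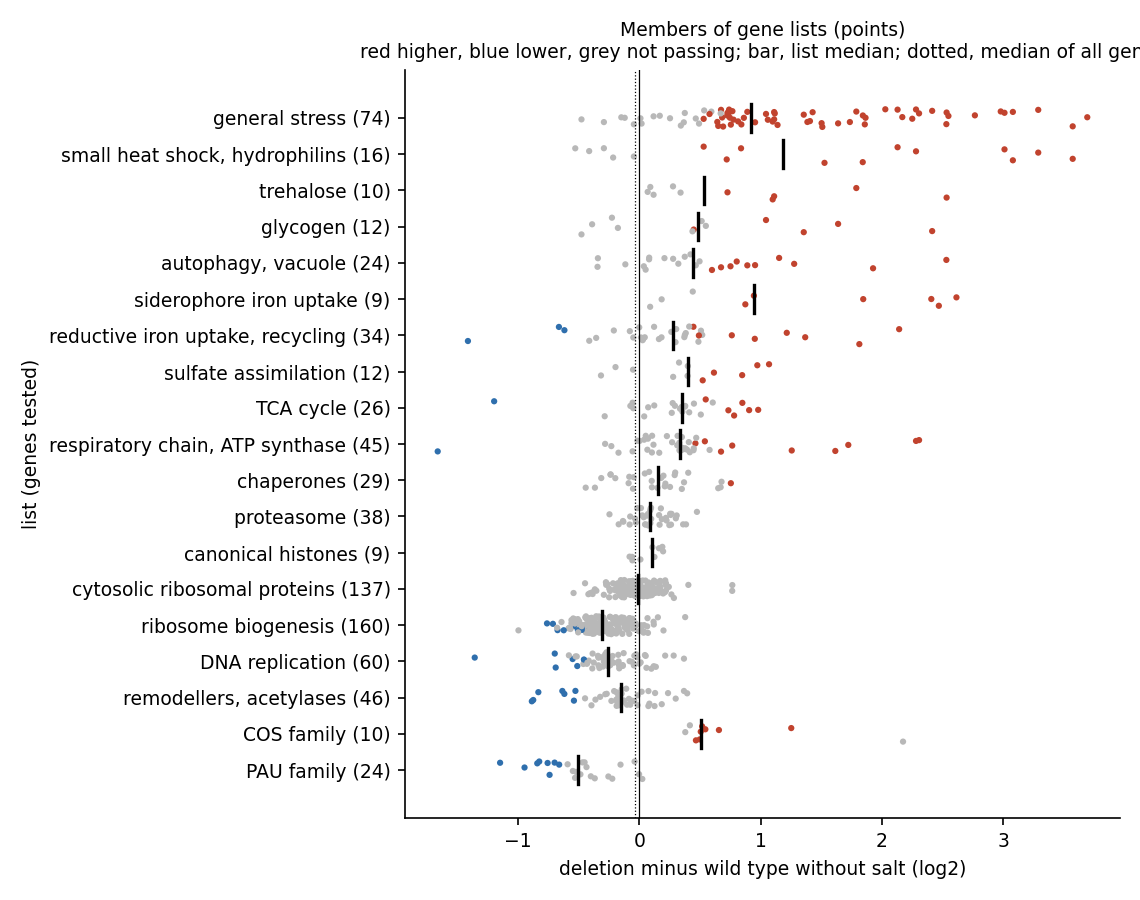
Difference between the strains without salt (horizontal axis, log2) for the tested members of gene lists, 1 point per gene, with the number tested in brackets; red is higher, blue lower, grey not passing, the black bar is the median of the list and the dotted line that of all genes. Of 74 general stress genes 56 are higher, and of 160 ribosome biogenesis genes 10 are lower.

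Among genes for the uptake of iron bound to siderophores, most were higher. Of 9 such genes 6 were higher, with a median of 0.94, and 3 of these remained without wild-type replicate 1. None was lower, also at an unadjusted p under 0.05. FIT1, FIT2 and FIT3 encode cell wall mannoproteins that hold siderophore iron. FIT2 was at 1.72 and 2.04 in wild type and 4.42 and 4.27 in the deletion strain, 5.53-fold higher (limma adjusted p = 0.000639). FIT3 was 5.30-fold higher and FIT1 6.12-fold, although the 2 wild-type arrays of FIT1 lay apart at −1.34 and −0.27. The transporter gene ARN2 was 3.59-fold higher and did not pass without wild-type replicate 1 (1.50). FIT2 and FIT3 lie next to each other, and whether they share probe signal was not tested.

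Reductive iron uptake and iron recycling gave a mixed picture, with 8 of 34 genes higher (23.53%) and 3 lower (8.82%, median 0.28). Over all genes 7.36% were higher and 6.32% lower. The 8 became 3 without wild-type replicate 1 and 4 without wild-type replicate 2 or deletion replicate 2. HMX1, the heme oxygenase, was at −1.50 and −1.38 against −0.25 and 0.10, 2.58-fold higher (limma adjusted p = 0.00239). The copper chaperone ATX1, which serves iron uptake, was 2.32-fold higher, and TIS11, which destabilises transcripts of iron-using proteins, 1.93-fold. These 3 held. The high-affinity uptake genes themselves, FET3 at 0.51 (SE 0.17) and FTR1 at 0.49 (SE 0.15), did not pass. The 3 lower genes were BIO2, GRX4 and GLT1, of which BIO2 and GLT1 encode enzymes that carry iron-sulfur clusters and GRX4 a glutaredoxin that reports iron status. GRX4 (−0.66, SE 0.14) did not pass without wild-type replicate 1 (−0.60), wild-type replicate 2 (−0.72) or deletion replicate 2 (−0.53), and GLT1 (−0.62, SE 0.14) not without wild-type replicate 2 (−0.47) or deletion replicate 1 (−0.53).

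Some sulfur genes were higher. Of 12 sulfate assimilation genes 5 were higher (median 0.40), against 3 of 30 in the methionine and S-adenosylmethionine group (median 0.07), a difference in share that was not tested. The 5 became 2 without either wild-type replicate, 3 without deletion replicate 2 and 1 under normexp, and the 3 became 1 without wild-type replicate 1 or either deletion replicate. MET3, the ATP sulfurylase that starts sulfate assimilation, was at −3.00 and −3.25 in wild type and −2.07 and −2.03 in the deletion strain, 2.10-fold higher (limma adjusted p = 0.00264). MET2, which makes O-acetylhomoserine for methionine, was 2.43-fold higher, at −3.68 and −3.70 against −2.16 and −2.67. Both held. The sulfate permease SUL2 was 1.96-fold higher and passed in all alternatives but normexp, where it was at 1.07.

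Of the 341 lower genes, 106 belonged to a gene list, beside 1768 of all 5394 genes. The list of the 10 outermost genes of each chromosome arm was left out of this count. Biotin synthesis had 2 of 5 tested genes lower. BIO2, the biotin synthase, was at −1.40 and −1.65 in wild type and −2.99 and −2.89 in the deletion strain, 2.66-fold lower (limma adjusted p = 0.00114). BIO4 was at least 3.57-fold lower (limma adjusted p = 0.0191) but did not pass without wild-type replicate 1 (−1.81), and was at −1.43 and −2.76 without deletion replicate 1 or 2. BIO3 (−0.23) and the biotin transporter gene VHT1 (−0.08) did not pass, and under normexp BIO2 was at −0.83 and BIO4 at −0.85 and neither passed. Thiamine and pyridoxine genes had 4 of 16 lower, 0 of them without wild-type replicate 1 (median −0.33, or 0.045 under normexp). The thiamine-repressible phosphatase PHO3 was lower by −0.94 (SE 0.17) and not past the threshold without wild-type replicate 1 (−0.77).

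Sugar sensing, transport and use gave single genes in both directions. Of 25 tested glucose-repressed and gluconeogenic genes 2 were higher and 3 lower, with a median of 0.11, and 20 did not pass. The 3 lower ones were PCK1 (−1.83, SE 0.22), ADH2 (−1.09, SE 0.17) and SUC2, and 1 of the 3 has only a bound on its fold. Under normexp 0 of the 25 were higher and 0 lower. SNF3, the sensor of low glucose, was at −2.19 and −2.09 in wild type and −3.64 and −3.80 in the deletion strain, 3.00-fold lower (limma adjusted p = 0.000692), and at −0.65 under normexp, where it did not pass. SUC2, the secreted invertase, was at −0.57 and −0.54 against −1.59 and −1.84, 2.23-fold lower (limma adjusted p = 0.0124). SUC2 did not pass without wild-type replicate 1 (−1.17) or replicate 2 (−1.14). The hexose transporter gene HXT5, made in slow growth, was at least 4.43-fold higher, with deletion levels of −3.36 and −1.52 that lay far from each other, and did not pass without wild-type replicate 1 (2.78) or 2 (2.89). Without deletion replicate 1 or 2 its difference was 3.76 or 1.91. Of 22 hexose transport and sensing genes on the array 13 were bright enough to be tested, of which 2 were higher and 1 lower.

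Among single genes, SOM1, for a subunit of the mitochondrial inner membrane peptidase, had the largest decrease among genes measured in both strains. It was at −1.14 and −1.31 in wild type and −3.84 and −3.90 in the deletion strain, 6.24-fold lower (limma adjusted p = 0.000111). SFB2, a Sec24-like coat protein of transport vesicles, was 3.37-fold lower and VNX1, a vacuolar cation exchanger, 2.81-fold. Under normexp SOM1 was at −1.50, SFB2 at −1.16 and VNX1 at −0.81, and none of the 3 passed. FCY21, of the purine and cytosine permease family, was at −0.49 and −0.47 against −1.87 and −1.82, 2.58-fold lower (limma adjusted p = 0.000639). XPT1, which recycles xanthine and guanine, was 2.03-fold lower (−1.02, SE 0.14). FCY21 and XPT1 held.

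At the CUP1 locus 5 of 8 tested genes were lower (62.5%, against 6.32% of all genes). The other 3 did not pass, and the highest value was 0.35. This group was chosen after its values were seen. The copper metallothionein genes CUP1-1 and CUP1-2 lie in a tandem repeat on chromosome VIII, with YHR054C between them and RSC30 and CPR2 beyond. CUP1-1 was at 4.28 and 4.16 in wild type and 3.28 and 3.08 in the deletion strain, 2.06-fold lower (limma adjusted p = 0.00568). CUP1-2 was lower by −0.98, RSC30 by −0.87, YHR054C by −0.84 and CPR2 by −0.82, with SEs of 0.12 to 0.15. All 5 also passed under normexp, while CUP1-2 (−0.93) and CPR2 (−0.71) did not pass without wild-type replicate 1. The 2 CUP1 copies have the same coding sequence and YHR054C is a partial copy of RSC30, so their probes may share signal. The arrays measure RNA, and the number of repeats in the 2 strains was not analysed here.

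Few genes of growth passed. Of 137 cytosolic ribosomal protein genes 0 passed, 3 were higher and 3 lower at an unadjusted p under 0.05, and the median was −0.01. Of them, 15 were lower and 1 higher in the authors' value table (median −0.17). Of 160 ribosome biogenesis genes 0 were higher and 10 lower, a share close to the 6.32% over all genes, while the median was −0.31 and 47 were lower at an unadjusted p under 0.05. Of the 10, 0 remained without either wild-type replicate, 4 and 5 without deletion replicate 1 and 2, and 0 under normexp, while 27 of the 160 were lower in the authors' value table. Among 24 genes for RNA polymerase I and III subunits, 2 were lower (median −0.20), neither of which passed without either wild-type replicate. DNA replication genes had 7 of 60 lower (11.67%, against 6.32% of all genes), with a median of −0.26, or −0.08 under normexp. Of the 7, 6 passed in the authors' value table, 2 without deletion replicate 2 and 0 without either wild-type replicate. Genes of Start, the commitment to a new cell cycle, had 4 of 22 lower and 1 higher (median −0.09), and 1 of the 4 remained without either wild-type replicate or deletion replicate 1. The lower share for Start was 18.18%, against 6.32% of all genes. STB1, a regulator of Start transcription, was 2.20-fold lower (limma adjusted p = 0.00551), and was at −0.12 and did not pass under normexp.

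The share of genes that passed was set beside the distance from a chromosome end, with no test of the difference between bins. Among the 5 outermost genes of each arm, by gene order, 20 were higher (18.69% of those tested) and 15 were lower (14.02%). Among genes 6 to 10 from an end, 8 of 110 were higher (7.27%) and 17 lower (15.45%). Among genes 11 to 20, 7.35% were higher and 9.93% lower. Farther in than gene 20, 327 of 4764 were higher (6.86%) and 279 lower (5.86%). Under normexp 0 of the 32 lower genes in the outermost 10 remained lower, whereas 29 of the 32 did in the authors' value table. Of the 28 higher ones 8 remained under normexp, 10 without either wild-type replicate and 17 without deletion replicate 2, and of the 32 lower ones 17 remained without wild-type replicate 2.

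Gene families of the chromosome ends differed in direction. Of 10 tested COS genes, which encode membrane proteins that act in sorting to the vacuole, 7 were higher (median 0.51), of which 1 remained without either wild-type replicate, 2 without deletion replicate 2, 4 under quantile scaling and 1 under normexp. COS8 was at −2.44 and −2.30 in wild type and −1.16 and −1.07 in the deletion strain, 2.38-fold higher (limma adjusted p = 0.000969), and held. Of 24 PAU genes, a family of cell wall mannoprotein-like genes known for repression by oxygen, 8 were lower (median −0.50, or −0.19 under normexp, where 0 of the 8 remained). Of the 8, 1 remained without wild-type replicate 2 and 2 without deletion replicate 1. PAU20 was at −2.24 and −1.73 against −3.39 and −2.87, 2.21-fold lower (limma adjusted p = 0.0191), and did not pass without wild-type replicate 2 (−0.89) or deletion replicate 1 (−0.89). Members of both families are close in sequence and may share probe signal, so their counts are not independent.

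With salt the same 2 strains differed in more genes, 1183 of 5394 (21.9%), of which 311 were higher (5.77%) and 872 lower (16.2%). Its group means use none of the unstressed arrays, but both comparisons take their errors from 1 estimate of the spread over all 8 arrays, so the lists of calls are not independent. Of the 397 genes higher without salt, 189 were also higher with it, which is 47.6% of the unstressed list and 60.8% of the salt list. Of the 341 lower genes, 242 were also lower with salt, or 71.0% and 27.8% of the lists. Another 2 higher and 2 lower genes passed in the opposite direction. Under normexp the shared higher count fell to 50 and the shared lower count to 18, the lowest among the alternatives. The genes higher without salt had a median difference of 0.51 with salt, and 379 of them kept their sign, but they were chosen by their unstressed values. Across all tested genes the 2 differences correlated at Pearson r = 0.695 and Spearman rho = 0.724, where genes are not independent replicates and both comparisons set slide row 1 against row 2.

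Values with salt are given beside those without it for genes and groups described above. FIT2 was higher by 2.17 (SE 0.19) with salt and HSP26 by 2.31 (SE 0.16), and CYC1 (−1.45) and SOM1 (−2.62) were lower there as well. Siderophore genes had 6 of 9 higher in each condition. Sulfate assimilation genes had 5 of 12 higher without salt and 0 higher and 2 lower with it (median 0.03), and 0 of the 12 passed the limma interaction test of that difference, with MET3 at an adjusted p of 0.0653. Ribosome biogenesis genes had 117 of 160 lower with salt (median −0.87) and 10 without, and 13 of the 160 passed the interaction test. TMA10 was at 0.48 with salt and GPP2 at −0.10, and neither passed there.

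The change of the strain difference with salt was tested by an interaction term, which 54 of 5394 genes passed (1%), 6 in the direction of higher and 48 of lower with salt. It was passed by 20 of the 397 higher and 11 of the 341 lower genes. The term uses the unstressed arrays by which the genes had been chosen. HXK1 had the difference that fell most among measured genes, from 3.69 without salt to 1.01 with it (interaction −2.68, SE 0.19, limma adjusted p = 0.00633), followed by TMA10 (interaction −2.53, SE 0.22). The count of 54 was 1 under normexp and between 4, without deletion salt replicate 1, and 102, without wild-type salt replicate 1.

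**Figure D5:**
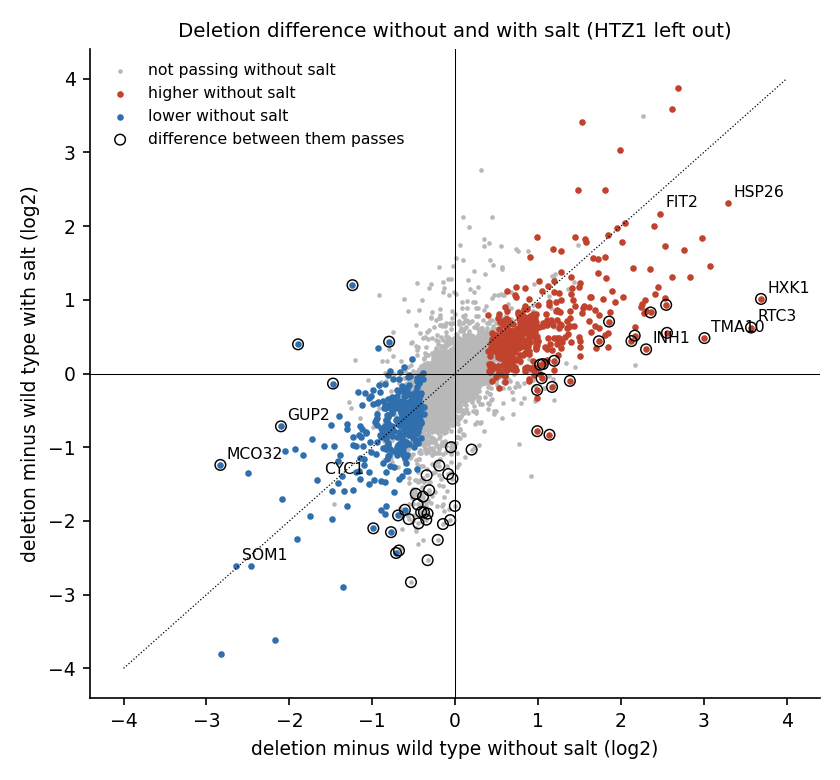
Difference between deletion and wild type with salt (vertical axis, log2) against the difference without salt (horizontal axis, log2), 1 point per tested gene, HTZ1 left out; red and blue mark genes higher and lower without salt, rings mark the 54 genes that passed the interaction test, and the dotted line is equality. HXK1, TMA10 and RTC3 lie well under the line, and FIT2 and SOM1 lie near it.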

How the data were processed

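Labelled RNA of each culture was hybridised to 1 Agilent yeast array (1 colour). The deposited scanner files hold spot intensity values written by Feature Extraction (Agilent, release 10.7.3.1 per the file headers), background-subtracted within each array and not scaled between arrays. The array design names the sacCer2 build, per the file headers. The authors' value table holds log2 values for 6187 probes. The submitters' processing notes name limma, and the sources used here do not give how the table was centred and scaled. Each column of it correlated at 0.951 to 0.967 with the log2 intensity of its own array, with column medians of 10.55 to 10.57.

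From the processed intensity, the 75th percentile of each array was divided out, log2 was taken, outlier spots were dropped and the spots of a probe were averaged. The brightest probe stood for a gene. Genes were tested where some group, of the 4, had them well above background on each of its 2 arrays. One model of 4 group means over all 8 arrays was fitted with limma 3.58.1 in R 4.3.3 (lmFit, eBayes), with 4 residual degrees of freedom, Benjamini-Hochberg adjustment over 5394 genes and an adjusted p threshold of 0.05. The fit and its counts were tested on simulated data. Tables were made with Python 3.11.15, pandas 2.3.3 and numpy 2.4.6. With 2 arrays in a group, precision is limited by their number, and no group is large enough for a permutation test to pass the threshold.

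A gene dim on both arrays of 1 strain has a fold given as "at least", from the bright strain's mean against the lowest signal among probes well above background, or the dim probe's own if that was higher. Gene names and gene order come from the RefSeq table for the R64 assembly, in which 5748 of 6256 probes were found and 508 were not, and 130 tested genes are not in it. Alternatives were quantile scaling, normexp with an offset of 50, the authors' value table, other filters on dim probes, the 4 unstressed arrays alone, the replicate number as a block, the mean over a gene's probes, and each array left out. The files hold no mean signal, so normexp used the median spot and median background intensity.

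The comparison, gene lists and tests were chosen with earlier results of these data known. The named genes are HTZ1 and its neighbours, the 15 largest changes each way among genes above background on all 4 arrays, the 8 largest bounds each way, up to 6 passing members of each list, all members of lists of up to 20 genes, and the 10 largest interactions. The pairs of related genes, the COS, PAU and CUP1 groups, and AIM2, ATG19, CAR2, CDC19, COX5A, FET3, FTR1, GAD1, GDH1, GPM1, MSN2, MSN4, OYE2, SSA1, SSA3, SSE1, SSE2, TDH3, TFS1, UGA2 and XPT1 were chosen after their values were seen. Results on 2 genes are not reported here.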

Additional observations from a re-analysis of the deposited data

Results flagged for a closer look

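For 11 genes described above, the difference between the strains was smaller with salt than without it by the interaction term (limma adjusted p under 0.05). HXK1 had an interaction of −2.68 and TMA10 of −2.53. RTC3 had −2.95, with both unstressed wild-type arrays below background. The other values were −1.98 for INH1, −1.69 for HSP12, −1.65 for GLK1, −1.62 for SOL4, −1.49 for GPP2, −1.15 for UBI4, −0.93 for EMI2 and −0.91 for GPM2. With salt the difference itself was 1.01 for HXK1, 0.93 for SOL4, 0.71 for UBI4, 0.62 for RTC3, 0.51 for GLK1, 0.44 for HSP12, 0.33 for INH1, 0.13 for EMI2, 0.12 for GPM2 and −0.10 for GPP2. These genes had been named for their unstressed difference, which enters the interaction, and the number of genes passing the interaction fell to 1 under normexp.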

How the results depend on the processing

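Without salt, 738 genes passed (397 higher, 341 lower). The counts were 190 (167 and 23) under normexp, 348 (223 and 125) with the 4 unstressed arrays alone and 1395 (700 and 695) with the replicate number as a block. They ran from 271 to 663 (168 to 374 and 103 to 289) when 1 array was left out, lowest without wild-type replicate 1. The share of higher calls was 53.8%, against 56.1% under quantile scaling, 48.9% in the authors' value table, 87.9% under normexp and 64.1% on the 4 arrays alone. The 54 interaction calls became 1 under normexp, 19 in the authors' table, 14 with no filter on dim probes, 141 with the replicate block and 4 to 102 with 1 array left out. The 189 shared higher and 242 shared lower calls became 50 and 18 under normexp, 379 and 502 with the replicate block, and 63 to 187 and 68 to 212 with 1 array left out. Leaving out an array leaves 1 in its group, which is then assumed to vary like the others.

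Replicates of the same number deviated together between groups (r of 0.176 to 0.422, and 0.324 between the unstressed strains), but with 2 numbers and no label that ties them, they are treated as sharing only a number. With the block 8 named genes that had not passed did so (limma adjusted p of 0.012 to 0.035): FET3, FTR1, MSN4, NAP1, CHZ1, GDH1, MDM12 and HMLALPHA2. Of these, NAP1 also passed under quantile scaling (limma adjusted p = 0.0343) and in the authors' value table (0.0285). It passed as well with only genes above background on all 4 unstressed arrays (0.0493). GDH1 (0.0222) and HMLALPHA2 (0.0452) also passed in the authors' value table. Of the named genes that passed, 1 changed sign in these alternatives: SWC3, at 0.068 under normexp, where it lost its call. Values of named genes that did not pass changed sign more often, as with MSN4 (0.22), GDB1 (0.43) and BIO3 (0.63) under normexp. The thiamine and pyridoxine median also changed sign there, to 0.045. Under quantile scaling no named gene lost its call, while 21 besides SWC3 did under normexp, 16 without wild-type replicate 1, 14 without wild-type replicate 2, 4 and 6 without deletion replicate 1 and 2. PCK1 and ADH2 are not among the named genes counted here. The background correction shifts dim genes most, so small differences in dim genes are the least certain.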
